A study of Mus musculus with 6 samples.

Results

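The transcripts described here are those of the mitochondrial genome in leukaemic B cells from mouse spleen. They were taken by gene identifier, which gave all 37 genes of chromosome M: 2 rRNA genes, 22 tRNA genes and 13 protein genes, of 54232 genes in the count table. The table gives a symbol to 13 of them, the protein genes, and the names used here are those of the GENCODE M21 annotation of GRCm38. The mice of the CK1i group (3 libraries) received PF-670462, which inhibits the kinases CK1 delta and CK1 epsilon, perorally at 50 mg/kg with 10% kolliphor/PBS as the vehicle, and those of the CTRL group (3 libraries) received the vehicle alone. Dosing began on day 5 after cell transfer, with 5 treated days followed by 2 days of recovery, and lasted 8 weeks in all. All recipients were wild-type C57BL/6J mice that had been injected in the peritoneum with spleen cells of leukaemic Eµ-TCL1 mice, of which about 99% were chronic lymphocytic leukaemia (CLL) cells. Eµ-TCL1 mice carry the TCL1 oncogene under an immunoglobulin enhancer that is active in B cells, so the leukaemia cells carry the transgene and the host does not. The labels do not give the age of the recipients, and they do not say how many donor mice were used or whether the libraries of a group came from separate recipients. The p-values therefore cover the spread between these libraries, which may be technical. All libraries carry 1 batch label.

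Mitochondrial DNA is a small circle that is transcribed from both strands into long precursors. In these precursors tRNAs stand between most of the rRNAs and mRNAs, and cutting them out at both ends frees the other RNAs, after which most mitochondrial mRNAs receive short poly(A) tails. The 2 rRNAs build the mitochondrial ribosome, the 22 tRNAs decode its messages, and the 13 proteins are subunits of respiratory complexes I, III and IV and of ATP synthase. CLL cells are known to draw much of their ATP from this respiratory chain. The libraries were 3' end libraries primed on poly(A), read for 75 bases, so a level reflects both how much RNA there was and whether it had a tail or an internal stretch of A to prime on.

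Libraries held 2472064 to 3105137 counts, and 14339 to 14836 genes had a count. The labelled cell type was checked with marker genes, whose levels are given as CPM, the count scaled by the library total, and summed over a list for other cell types. Cd79b, a subunit of the B-cell receptor, was at 667 to 722 CPM in CK1i libraries and 733 to 763 CPM in CTRL libraries. Cd79a, of the same list, was far lower, at 8.70 to 14.6 CPM in CK1i and 11.9 to 17.8 CPM in CTRL libraries. Cd5, which marks these leukaemia cells, was at 27.9 to 32.0 CPM in CK1i and 25.5 to 34.8 CPM in CTRL libraries. T-cell markers summed to 2.30 to 16.6 CPM in CK1i and 4.45 to 11.4 CPM in CTRL libraries. Macrophage and monocyte markers, all 8 with counts, summed to 34.2 to 39.3 CPM in CK1i and 23.8 to 28.3 CPM in CTRL libraries, mostly from Cd68. C1qa, C1qb and C1qc had 0 to 2 counts per library, and the 6 neutrophil markers summed to 3.54, 0 and 0.405 CPM in CK1i libraries (S100a8, S100a9 and Ngp) and to 0 in each CTRL library, with Ly6g, Elane and Mpo at 0 in all 6. Plasma cell markers summed to much more, 798 to 1770 CPM in CK1i and 1369 to 2261 CPM in CTRL libraries, mostly from Jchain and Mzb1. Stroma and endothelium markers summed to 164 to 178 CPM in CK1i and 172 to 192 CPM in CTRL libraries, mostly from Pecam1. Whether leukaemia cells or other cells held these transcripts was not tested, nor was the part of other cells in the values below.

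Both rRNA genes were among the most abundant members. Levels of single genes are given from here on as CPM scaled by TMM unless stated, and levels of different genes are compared only per kilobase of gene length. mt-Rnr2, the 16S rRNA of the large ribosomal subunit (ENSMUSG00000064339, chromosome M, 1094 to 2675, plus strand), had 26037, 38345 and 36996 CPM in CK1i replicates 1 to 3, against 38983, 27686 and 35191 CPM in CTRL replicates 1 to 3. mt-Rnr1, the 12S rRNA of the small subunit (ENSMUSG00000064337, 70 to 1024, plus strand), had 7693, 14255 and 10330 CPM in CK1i libraries, against 11725, 8038 and 12699 CPM in CTRL libraries. CK1i replicate 1 and CTRL replicate 2 were the low libraries of their groups for both genes, and the groups overlapped. The ratio of mt-Rnr2 to mt-Rnr1 counts was 3.38, 2.69 and 3.58 in CK1i and 3.32, 3.44 and 2.77 in CTRL libraries. It was lowest in CK1i replicate 2 and CTRL replicate 3, in each of which mt-Rnr1 took a larger share of the mitochondrial counts (13.4% and 12.3%) than in the other 4 libraries of the study (9.52% to 10.3%).

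Of the 13 protein genes 6 had high counts, mt-Nd6 had 74 to 131 counts per library, and the other 6 had almost none. The first genes are those of complex I, the NADH dehydrogenase. mt-Nd4 (ENSMUSG00000064363, 10167 to 11544, plus strand) had 13412, 16183 and 18333 CPM in CK1i libraries, against 20065, 16178 and 18155 CPM in CTRL libraries. mt-Nd1 (ENSMUSG00000064341, 2751 to 3707, plus strand) had 9825, 13081 and 15406 CPM in CK1i libraries, against 16338, 11688 and 13964 CPM in CTRL libraries. For both genes CK1i replicate 1 was the lowest of the 6 libraries and CTRL replicate 1 the highest, with the others between them. mt-Nd2 (ENSMUSG00000064345) had 4568, 6957 and 4992 CPM in CK1i, against 5947, 4299 and 5788 CPM in CTRL libraries, and mt-Nd5 (ENSMUSG00000064367) had 2025, 2931 and 2565 CPM in CK1i, against 3211, 2460 and 2671 CPM in CTRL libraries. The groups of these genes overlapped too, with CK1i replicate 2 highest for mt-Nd2.

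mt-Nd6 (ENSMUSG00000064368, 13552 to 14070) is the only protein gene annotated on the minus strand. It had 29.3, 42.7 and 33.3 CPM in CK1i libraries, against 35.1, 29.5 and 28.7 CPM in CTRL libraries. Its last 14 annotated bases lie within mt-Nd5 on the other strand, and no label or header gives the strand setting of the authors' counting, so reads there cannot be assigned with certainty. Genes of the minus strand, mt-Nd6 with 8 tRNA genes, together took 0.0518% to 0.0706% of mitochondrial counts in CK1i and 0.0468% to 0.102% in CTRL libraries.

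mt-Cytb, the cytochrome b subunit of complex III (ENSMUSG00000064370, 14145 to 15288, plus strand), had 9586, 12250 and 14453 CPM in CK1i libraries, against 16646, 12186 and 12908 CPM in CTRL libraries. mt-Co1, the catalytic subunit of complex IV (ENSMUSG00000064351, 5328 to 6872, plus strand), had 1257, 2027 and 2146 CPM in CK1i, against 2277, 1665 and 1639 CPM in CTRL libraries. CK1i replicate 1 again had the lowest value of both genes, and the groups overlapped.

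Per kilobase, mt-Rnr2 stood first with 21360 ± 4267 CPM per kb in CK1i and 21462 ± 3634 CPM per kb in CTRL libraries (SD, n = 3). It was followed by mt-Nd1 (13344 ± 2930 in CK1i and 14626 ± 2430 CPM per kb in CTRL), mt-Nd4, mt-Cytb, mt-Rnr1, mt-Nd2, mt-Nd5 and mt-Co1 (1171 ± 312 in CK1i and 1204 ± 234 CPM per kb in CTRL). The first 4 kept this order among themselves in all 6 libraries although their ranges over libraries overlapped. mt-Rnr1 changed place: mt-Cytb lay above it in 4 of 6. In CK1i replicate 2 mt-Rnr1 was at 14926.5 CPM per kb, above mt-Nd1 at 13669. In CTRL replicate 3 it was at 13298 CPM per kb, above mt-Nd4 at 13175. The range of mt-Nd2 overlapped neither that of mt-Rnr1 above it nor that of mt-Nd5 below it. Reads of a 3' end library come from near the priming site, so dividing by length is a description of scale and not of molecules.

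**Figure D1:**
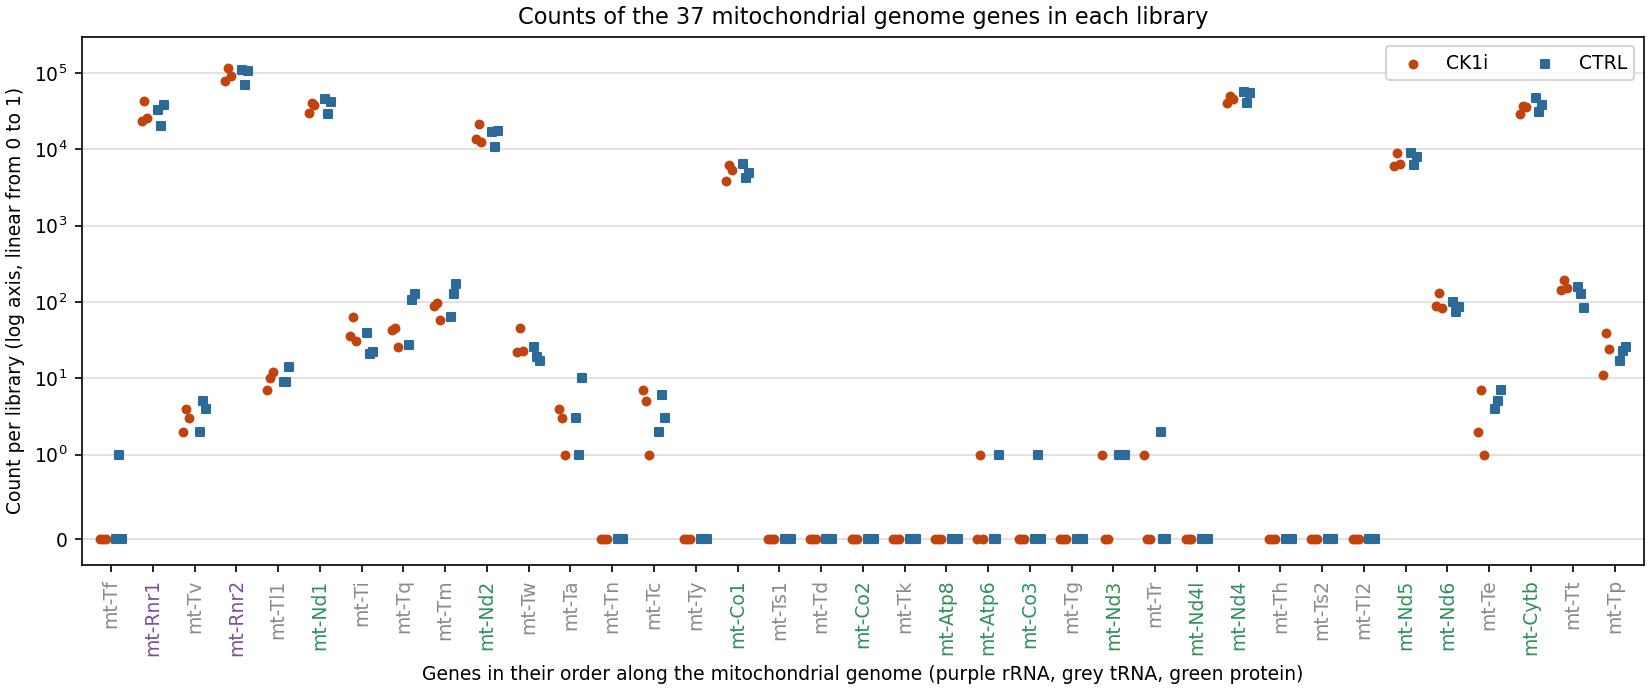
Counts of each mitochondrial gene (y axis, log scale that is linear from 0 to 1) in genome order (x axis), with CK1i libraries as circles left of CTRL libraries as squares, 3 each. The rRNA genes and 7 of the 13 protein genes have counts in every library, and the 11 neighbouring genes between mt-Co1 and mt-Nd4 have 4 counts or fewer each over the 6 libraries.

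The other 6 protein genes had almost no counts. mt-Co2 and mt-Co3 encode further core subunits of complex IV, mt-Atp6 and mt-Atp8 encode subunits of ATP synthase, and mt-Nd3 and mt-Nd4l encode subunits of complex I. Over the 6 libraries mt-Co2, mt-Atp8 and mt-Nd4l had 0 counts each, mt-Co3 had 1, mt-Atp6 had 2 and mt-Nd3 had 4. For a count of 0 in all libraries the upper 95% bound from counting error is 0.176 CPM, which is what 3 counts over the 6 libraries are worth. It holds only where reads of the gene were counted. All 6 lie in 1 stretch of chromosome M, 6870 to 10173, which holds 11 genes (the other 5 are tRNA genes) and has 10 counts in all. The genes that flank it, mt-Co1 and mt-Nd4, had 30881 and 287515 counts.

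Most of that stretch is also found in the nuclear genome. Each rRNA and protein gene was divided into all its windows of 75 bases, the read length, and each window was looked for without mismatch in the GENCODE transcripts of nuclear genes, on both strands. More than 90% of the windows of mt-Co2 (99.5%), mt-Atp6 (99.5%), mt-Co3 (99.9%), mt-Nd3 (97.8%) and mt-Nd4l (98.7%) occurred in an annotated nuclear pseudogene, and these 5 genes had 0 to 4 counts. mt-Rnr1, mt-Rnr2, mt-Nd1, mt-Nd6 and mt-Cytb had no such window, and their counts ran from 562 for mt-Nd6 to 573507 for mt-Rnr2. mt-Atp8 had no such window either and yet had 0 counts. Only annotated transcripts could be searched. On chromosome 1 no gene with a shared window lies between the copies of mt-Atp6 and mt-Co2, and the sequence between them was not used here.

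**Figure D2:**
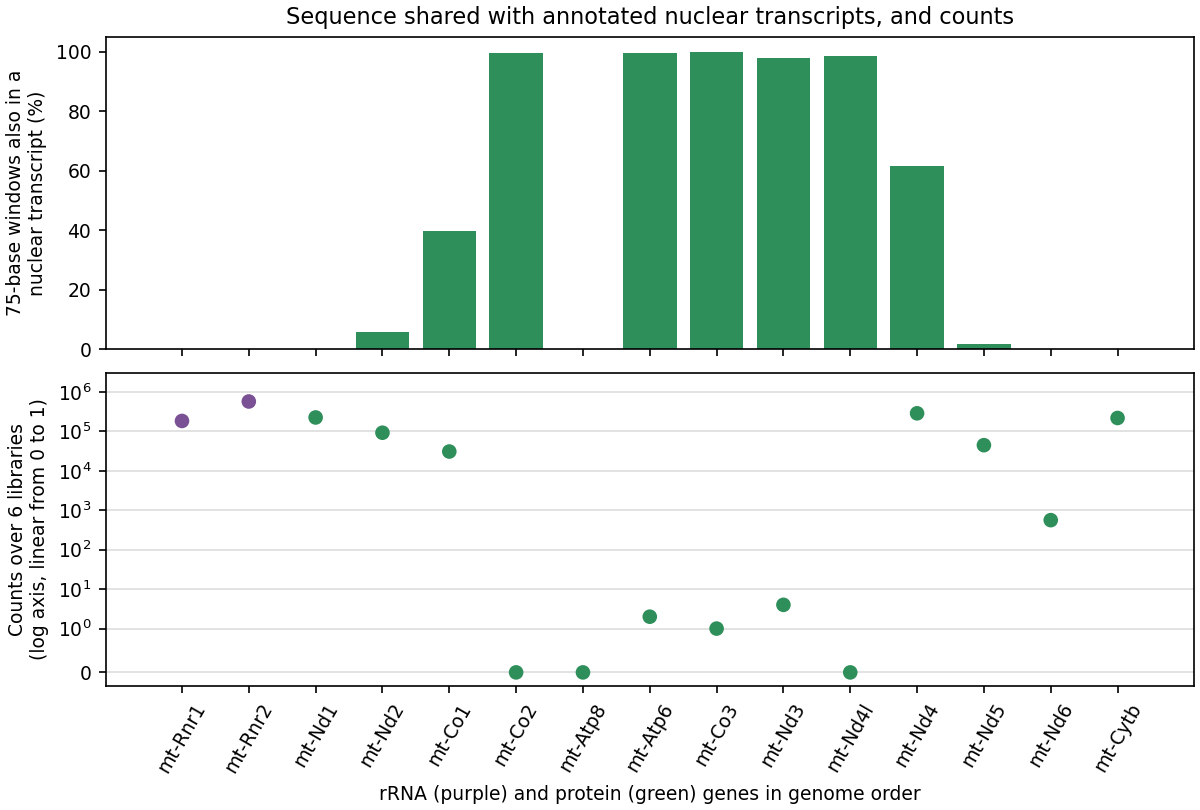
Upper panel, share of each gene's 75-base windows that also occur in an annotated nuclear transcript (y axis, percent). Lower panel, counts of the same genes summed over the 6 libraries (y axis, log scale that is linear from 0 to 1), both for the 15 rRNA and protein genes in genome order. The 5 genes above 90% have 0 to 4 counts, and mt-Atp8 has 0 counts with a share of 0.

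A window was shared with 12 nuclear genes, and 7 of them form a row of unprocessed pseudogenes on chromosome 1, 24611535 to 24616197 (GRCm38, minus strand), in the order of the mitochondrial genes. Gm29216 holds bases 1067 to 1545 of mt-Co1, and Gm28661, Gm10925, Gm28437, Gm28438, Gm10222 and Gm28439 match mt-Co2, mt-Atp6, mt-Co3, mt-Nd3, mt-Nd4l and mt-Nd4. Gm28437 matches bases 1 to 783 of the 784 bases of mt-Co3 without a difference. The 75 bases that end 1 base before the end of mt-Co3, where a 3' end read would be looked for, are shown with the same stretch of the pseudogene, 5' to 3' on the strand of each gene.
mt-Co3, chrM:9315-9389, plus strand: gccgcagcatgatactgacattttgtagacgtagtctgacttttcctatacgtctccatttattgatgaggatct
Gm28437, chr1:24613189-24613263, minus strand: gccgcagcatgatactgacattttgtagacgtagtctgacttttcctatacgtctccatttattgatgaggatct
A read from this stretch matches both places equally well. How the authors' counting treated such reads is not stated in the labels or the file, and whether they were dropped was not tested.

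The genes at both edges of the copied stretch differ in which end is shared. In mt-Nd4, 61.5% of all windows were shared, those within bases 1 to 876, while 0% of the last 200 windows were. In mt-Co1, 39.8% of all windows were shared, and 100% of the last 200 were. Both genes had counts. The end of mt-Nd4, which has no nuclear match, and that of mt-Cytb, which has none along the whole gene, are shown as the counterpart to mt-Co3.
mt-Nd4, chrM:11470-11544, plus strand: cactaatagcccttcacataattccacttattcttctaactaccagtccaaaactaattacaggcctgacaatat
mt-Cytb, chrM:15214-15288, plus strand: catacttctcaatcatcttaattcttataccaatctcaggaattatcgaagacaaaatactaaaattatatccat

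Runs of A inside a transcript can prime an oligo(dT) library as a tail does. The run AAAAAA was searched on the gene's own strand, and TTTTTT stood for the other strand. At least 1 run of 6 A was found in 8 of the 37 genes: mt-Rnr2 with 4 runs, mt-Nd2 with 3, mt-Nd4 and mt-Nd5 with 2 each, and mt-Nd1, mt-Co1, mt-Tr and mt-Th with 1 each. mt-Rnr1, mt-Nd6 and mt-Cytb had counts and held no such run on their own strand. TTTTTT, a run of A on the other strand, was found in 2 of the 37 genes, mt-Nd6 and mt-Cytb. None of the 6 protein genes with almost no counts held either run. These 6 are 204 to 784 bases long, and no background was computed at their lengths. mt-Tr and mt-Th, which do hold a run of A, had 3 and 0 counts over the 6 libraries. As a background, 39.3% of nuclear protein-coding transcripts hold AAAAAA in their last 957 bases, the length of mt-Nd1, and 51.7% in their last 1545 bases, the length of mt-Co1. The run of mt-Co1 begins at base 789, upstream of the part copied on chromosome 1. Gm13340 on chromosome 2 shares some windows of mt-Co1 between bases 88 and 1457, and whether any of them holds this run was not tested. The run is shown in capitals with the 60 bases before it, beside the longest run of mt-Rnr2.
mt-Co1, chrM:6056-6132, plus strand: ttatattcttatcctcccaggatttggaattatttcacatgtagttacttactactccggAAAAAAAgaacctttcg
mt-Rnr2, chrM:1428-1504, plus strand: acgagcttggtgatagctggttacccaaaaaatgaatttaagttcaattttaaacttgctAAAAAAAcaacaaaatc
The table gives no read positions, so these runs are a description of the sequence and not of where reads ended.

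The pseudogenes themselves had counts that did not follow the groups. Gm28438, the copy of mt-Nd3, had 830 counts in CTRL replicate 3 and 0 in each of the other 5 libraries. Gm10925, the copy of mt-Atp6, had 0, 75 and 3 counts in CK1i libraries, against 55, 0 and 5 in CTRL libraries, and Gm29216, the copy of the end of mt-Co1, had 1, 1 and 4, against 89, 2 and 7. Gm13341, a second copy of mt-Co2 on chromosome 2, had 86, 166 and 29 counts in CK1i and 169, 16 and 34 in CTRL libraries. The 7 pseudogenes of chromosome 1 together had 2, 109 and 15 counts in CK1i and 165, 2 and 866 in CTRL libraries. The mitochondrial genes beside them varied far less: mt-Nd4 had 40761 to 49610 counts in CK1i and 40526 to 56524 in CTRL libraries.

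tRNA genes had few counts. Mature tRNAs carry no poly(A) tail, and these genes are 59 to 75 bases long. Of the 22, 9 had 0 counts in all libraries (mt-Tn, mt-Ty, mt-Ts1, mt-Td, mt-Tk, mt-Tg, mt-Th, mt-Ts2 and mt-Tl2), with the same upper bound of 0.176 CPM each. mt-Tf had 1 and mt-Tr 3 counts, and mt-Tv, mt-Ta, mt-Tc and mt-Te had 20 to 26 counts over the 6 libraries. The other 7 were tested, 6 of them with at least 100 counts. Together the 22 tRNA genes took 0.127% to 0.162% of mitochondrial counts in CK1i and 0.108% to 0.212% in CTRL libraries.

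mt-Tt, the threonine tRNA (ENSMUSG00000064371, 15289 to 15355), begins at the base after the end of mt-Cytb and had the most counts of a tRNA gene. Its levels were 47.4, 64.3 and 61.4 CPM in CK1i libraries, against 56.1, 50.7 and 27.7 CPM in CTRL libraries. CTRL replicate 3 was the low library. Per kilobase it lay next below mt-Co1, at 861 ± 135 CPM per kb in CK1i and 669 ± 225 CPM per kb in CTRL libraries (SD, n = 3), and below mt-Co1 in all 6 libraries.

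A trio of neighbouring tRNA genes after mt-Nd1 had the largest log2 fold changes, in either direction, of the 16 tested members. They encode the isoleucine (mt-Ti), glutamine (mt-Tq) and methionine (mt-Tm) tRNAs. mt-Tq lies on the minus strand, and its last 3 bases, in capitals, lie opposite the last 3 of mt-Ti.
mt-Ti, chrM:3706-3774, plus strand: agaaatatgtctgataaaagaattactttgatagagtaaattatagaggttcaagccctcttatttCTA
mt-Tq, chrM:3772-3842, minus strand: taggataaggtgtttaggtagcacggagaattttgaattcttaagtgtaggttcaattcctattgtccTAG
mt-Tm, chrM:3845-3913, plus strand: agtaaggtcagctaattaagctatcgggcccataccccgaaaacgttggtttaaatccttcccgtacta
mt-Tq had 14.1, 14.7 and 10.4 CPM in CK1i libraries (43, 45 and 26 counts), against 9.58, 42.3 and 42.7 CPM in CTRL libraries (27, 106 and 128 counts). mt-Tm had 29.3, 31.3 and 23.3 CPM in CK1i, against 22.4, 50.3 and 57.8 CPM in CTRL libraries. For both genes CTRL replicates 2 and 3 were high and CTRL replicate 1 was the lowest of all 6 libraries, so the groups overlapped. mt-Ti, on the other side, had 11.8, 20.9 and 12.4 CPM in CK1i, against 13.8, 8.38 and 7.34 CPM in CTRL libraries: here CK1i replicate 2 was high and CTRL replicates 2 and 3 were the low libraries. mt-Tw, the tryptophan tRNA after mt-Nd2, had 7.24, 15.01 and 9.22 CPM in CK1i, against 9.23, 7.58 and 5.68 CPM in CTRL libraries. mt-Tp, the proline tRNA of the minus strand, had 3.62, 12.7 and 9.63 CPM in CK1i, against 6.03, 9.18 and 8.68 CPM in CTRL libraries. Whether the authors counted by strand is not known here, so reads of mt-Tq cannot be told apart from reads of the opposite strand.

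Mitochondrial genes together took 7.30% (95% Wilson interval 7.27% to 7.33%), 10.7% (10.66% to 10.73%) and 10.6% (10.59% to 10.67%) of all counts in CK1i replicates 1 to 3, against 11.4% (11.3% to 11.4%), 8.55% (8.52% to 8.59%) and 10.1% (10.05% to 10.12%) in CTRL replicates 1 to 3. The means were 9.54% ± 1.94 in CK1i and 10.0% ± 1.41 in CTRL libraries (SD, n = 3), which differ by less than the spread within either group. The difference of -0.46 percentage points turned on single libraries: leaving out CK1i replicate 1 gave 0.66, and leaving out CTRL replicate 1 gave 0.22. In bulk samples fewer cells of a kind and less RNA per cell cannot be told apart, and the number of mitochondrial genomes per cell was not measured. Of the mitochondrial counts, rRNA genes took 46.6% ± 2.57 in CK1i and 44.2% ± 2.05 in CTRL libraries, and protein genes 53.3% ± 2.58 in CK1i and 55.6% ± 2.03 in CTRL libraries. The ratio of rRNA to protein gene counts was 0.829, 0.984 and 0.817 in CK1i and 0.786, 0.736 and 0.868 in CTRL libraries, so the groups overlapped.

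**Figure D3:**
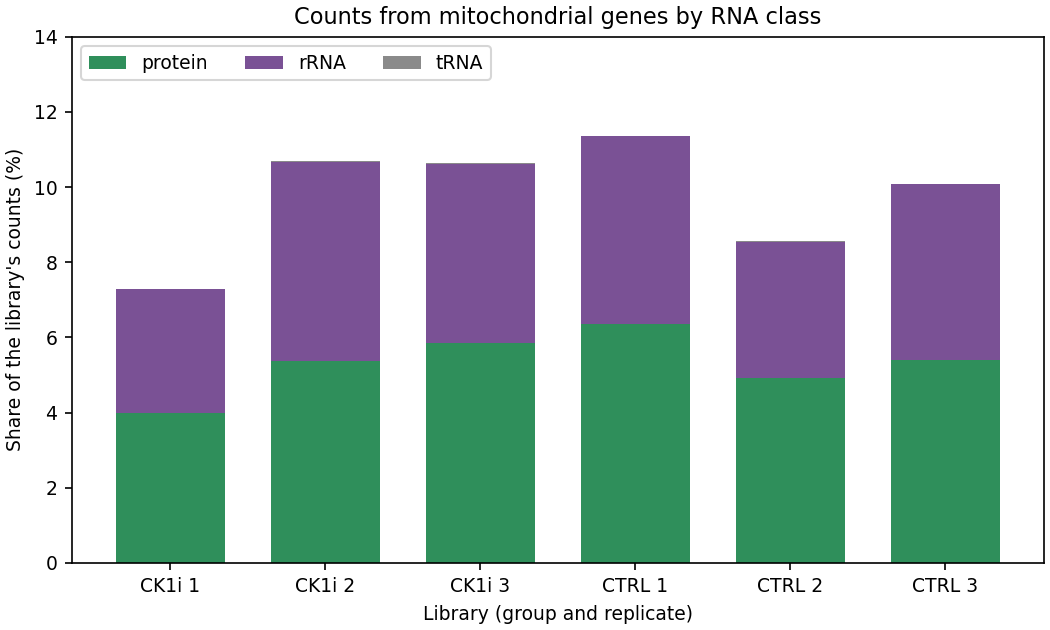
Share of each library's counts that came from mitochondrial genes (y axis, percent), stacked by RNA class, for 3 CK1i and 3 CTRL libraries. Totals span 7.30% to 10.7% in CK1i libraries and 8.55% to 11.4% in CTRL libraries, and the tRNA part, 0.0182% of a library at most, is too thin to see.

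The library with the lowest mitochondrial share, CK1i replicate 1, also had the highest level of heat shock and immediate early transcripts. The CPM values of this paragraph are scaled by the library total, without TMM. Hspa1a was at 2579, 1578 and 535 CPM in CK1i libraries, against 1486, 94.6 and 533 CPM in CTRL libraries. Jun was at 1976, 900.1 and 699.8 CPM in CK1i, against 1016, 549 and 833 CPM in CTRL libraries. CTRL replicate 2, with the lowest share in its group, had the lowest Hspa1a and Jun of all. The nuclear RNA Malat1 was at 5147, 8137 and 6034 CPM in CK1i, against 7621, 5171 and 6019 CPM in CTRL libraries, lowest in the same 2 libraries that had the lowest mitochondrial share. The part of these differences in the mitochondrial values was not tested.

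The comparison of CK1i with CTRL asks whether leukaemia cells of inhibitor-treated mice carry other amounts of mitochondrial transcripts. No difference past the threshold was found. Of the 37 genes, 16 passed the filter on low counts and were tested (both rRNA genes, 7 protein genes and 7 tRNA genes), and edgeR's quasi-likelihood test with Benjamini-Hochberg adjustment over all 10067 tested genes called 0 higher and 0 lower. The same test called 0% of all tested genes. At an unadjusted p under 0.05 there were 0 of the 16 members and 473 of all tested genes, which is 4.70%, and DESeq2 and limma-voom also called 0 members, with DESeq2 calling 0.0795% of all genes. The CPM values of the groups did not overlap for 0 of the 16 members, against 9.70% of all tested genes. The median log2 fold change of CK1i over CTRL was -0.024 over the 16 members and -0.0055 over all tested genes.

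For the rRNA genes the log2 fold changes were close to 0, with intervals that reach about 0.5 in each direction. mt-Rnr2 had -0.0068 ± 0.23 (SE; edgeR adjusted p = 0.9996), with a 95% interval of -0.50 to 0.48, which is 0.709 to 1.40 on the fold scale. mt-Rnr1 had -0.0082 ± 0.24, with an interval of -0.53 to 0.52.

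Of the 7 tested protein genes 5 had values below 0 and 2 above, with a median log2 fold change of -0.13. mt-Cytb had -0.20 ± 0.21 (SE; 95% interval -0.65 to 0.25; edgeR adjusted p = 0.9995), mt-Nd4 -0.18 ± 0.20, mt-Nd5 -0.15 ± 0.18, mt-Nd1 -0.13 ± 0.22 and mt-Co1 -0.04 ± 0.21. mt-Nd2 had 0.04 ± 0.20 and mt-Nd6, the minus strand gene, 0.17 ± 0.19. All 7 genes were measured in the same libraries, and all but mt-Nd6 are cut from precursors of the plus strand. They share their error, so these values are not separate observations. Leaving out single libraries moved every one of these values by more than 1.5 times. Without CK1i replicate 1 the values were 0.16 for mt-Co1, 0.02 for mt-Nd1, 0.16 for mt-Nd2, 0.29 for mt-Nd6, -0.019 for mt-Nd5, -0.061 for mt-Cytb and -0.073 for mt-Nd4. Without CTRL replicate 1 they were 0.13 for mt-Co1, -0.036 for mt-Nd5 and -0.055 for mt-Cytb. Without CK1i replicate 2 mt-Nd6 was at 0.0011 and mt-Nd2 at -0.16, and over all libraries left out mt-Cytb ranged from -0.36 to -0.055, mt-Nd4 from -0.30 to -0.073, mt-Nd5 from -0.28 to -0.019 and mt-Nd6 from 0.0011 to 0.29.

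**Figure D4:**
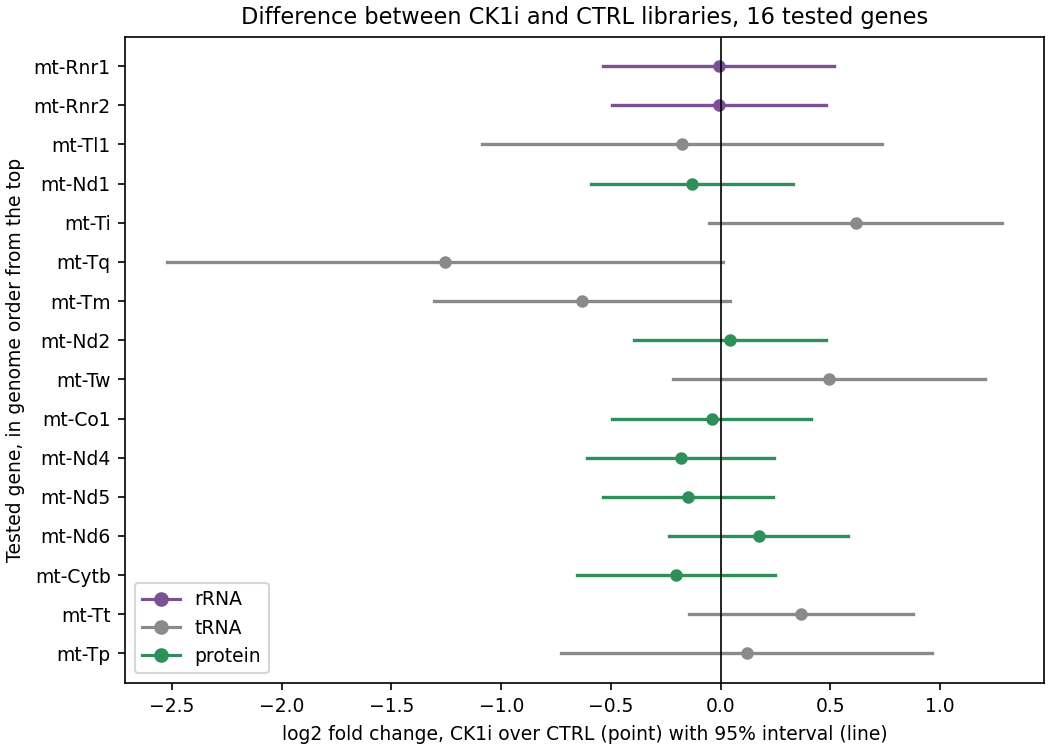
Log2 fold change of CK1i over CTRL (x axis) for the 16 tested genes in genome order (y axis), with points for the estimates and lines for 95% intervals, 3 libraries per group. All 16 intervals include 0, and those of the 7 protein genes are narrower than those of the 7 tRNA genes.

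The tRNA genes spread most widely, from -1.26 for mt-Tq to 0.62 for mt-Ti, with a median of 0.12 over the 7 tested. For mt-Tq the estimate was -1.26 ± 0.53 (SE; 95% interval -2.52 to 0.01; edgeR adjusted p = 0.9995), mt-Tm -0.63 ± 0.30 (interval -1.31 to 0.04) and mt-Ti 0.62 ± 0.31 (interval -0.05 to 1.28). mt-Tw had 0.49 ± 0.33, mt-Tt 0.37 ± 0.23, mt-Tp 0.12 ± 0.39 and mt-Tl1, the leucine tRNA before mt-Nd1, -0.18 ± 0.43. Whether mt-Tq passed the threshold turned on 1 library. Without CTRL replicate 1, in which it had 27 counts, its log2 fold change was -1.69 with an edgeR adjusted p of 0.0123, and it was then the 1 gene called among 10261 tested. Over all alternatives its value ranged from -1.69 to -0.96 and its sign did not change. Without the same library mt-Tm had -0.95 and mt-Ti 0.94, neither past the threshold, and mt-Ti had 0.29 and mt-Tw 0.13 without CK1i replicate 2.

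Nuclear genes that act on mitochondrial genes or RNAs, or in mitochondrial translation, respiration or ATP synthesis, were read from the same fit. The 10 lists held 260 tested genes. edgeR called 0 of them in either direction, and 8 of the 260 had an unadjusted p under 0.05, against 4.70% of all tested genes. Of all 10067 tested genes, 4917 had values above 0 and 5150 below, which is the background for the counts of signs in the lists. In the transcription list 6 of 9 genes were tested, with a median log2 fold change of -0.0075: Tfam, which packs mitochondrial DNA and starts transcription, had 0.15 ± 0.16 (SE), Polrmt, the mitochondrial RNA polymerase, -0.16 ± 0.17, and the regulator Mterf2 -0.24 ± 0.25. In the list of DNA replication and upkeep (11 tested, median -0.055) Primpol, a primase that also works in the nucleus, averaged 25.2 ± 2.44 CPM in CK1i libraries and 17.1 ± 3.07 CPM in CTRL libraries (SD, n = 3). Its log2 fold change was 0.57 ± 0.21 (SE), with an adjusted p of 0.943 from edgeR. Its groups did not overlap, which held for 1 of the 11 tested genes of this list and for 9.70% of all tested genes. Polg, the mitochondrial DNA polymerase, had -0.14 ± 0.15 and Top1mt, the mitochondrial topoisomerase, -0.46 ± 0.41. The list of nuclear regulators (8 tested, median 0.0031) was led by Gabpb2 with 0.17 ± 0.13.

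The list of RNA processing, polyadenylation and decay is closest to the transcripts described here. Of its 21 tested genes 0 were called higher and 0 lower, 15 had values below 0, and its median log2 fold change was -0.13. Rexo2, which degrades short RNA fragments in mitochondria, had 121, 106 and 168 CPM in CK1i libraries, against 169, 178 and 174 CPM in CTRL libraries. Fastk, the founding member of a family of mitochondrial RNA regulators, had 56.3, 61.7 and 56.1 CPM in CK1i, against 69.6, 76.6 and 73.1 CPM in CTRL libraries. All CK1i libraries lay below all CTRL libraries for both genes, with log2 fold changes of -0.40 ± 0.17 and -0.33 ± 0.14 (SE; edgeR adjusted p = 0.9995 for each). The groups did not overlap for 3 of the 21, each lower in CK1i, against 9.70% of all tested genes in either direction. Slirp, a partner of Lrpprc in keeping mitochondrial mRNAs stable, had 0.33 ± 0.19.

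Among genes of tRNA modification (14 tested, 10 with values below 0, median log2 fold change -0.21) none was called. Qtrt1, a subunit of the enzyme that puts queuine into tRNAs, averaged 22.9 ± 2.60 CPM in CK1i libraries and 34.3 ± 4.07 CPM in CTRL libraries (SD, n = 3). Its log2 fold change was -0.59 ± 0.19 (SE), with an adjusted p of 0.841 from edgeR. Trit1, which modifies an adenosine beside the anticodon, had -0.45 ± 0.21 and Alkbh1, which modifies mitochondrial and cytosolic tRNAs, -0.27 ± 0.14. All CK1i libraries lay below all CTRL libraries for these 3 genes, and for 4 of the 14 in all, while 9.70% of all tested genes had groups that did not overlap in either direction. Of the 75 tested nuclear subunits of the respiratory chain and ATP synthase 50 had values above 0 and 25 below, with a median of 0.051. None was called. The groups were apart for 7 of the 75, each higher in CK1i, to be read against the same 9.70%. Genes of a list were measured in the same libraries and can share error, so these counts are not of separate observations. Whether any list differed as a whole was not tested. Of the 76 tested mitochondrial ribosomal protein genes 33 had values above 0 and 43 below, with 3 apart on the higher and 10 on the lower side and a median of -0.030. The medians of the other lists were -0.0075 for ribosomal RNA modification and assembly (18 tested), 0.047 for aminoacyl-tRNA synthetases (22) and 0.068 for translation factors (9).

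**Figure D5:**
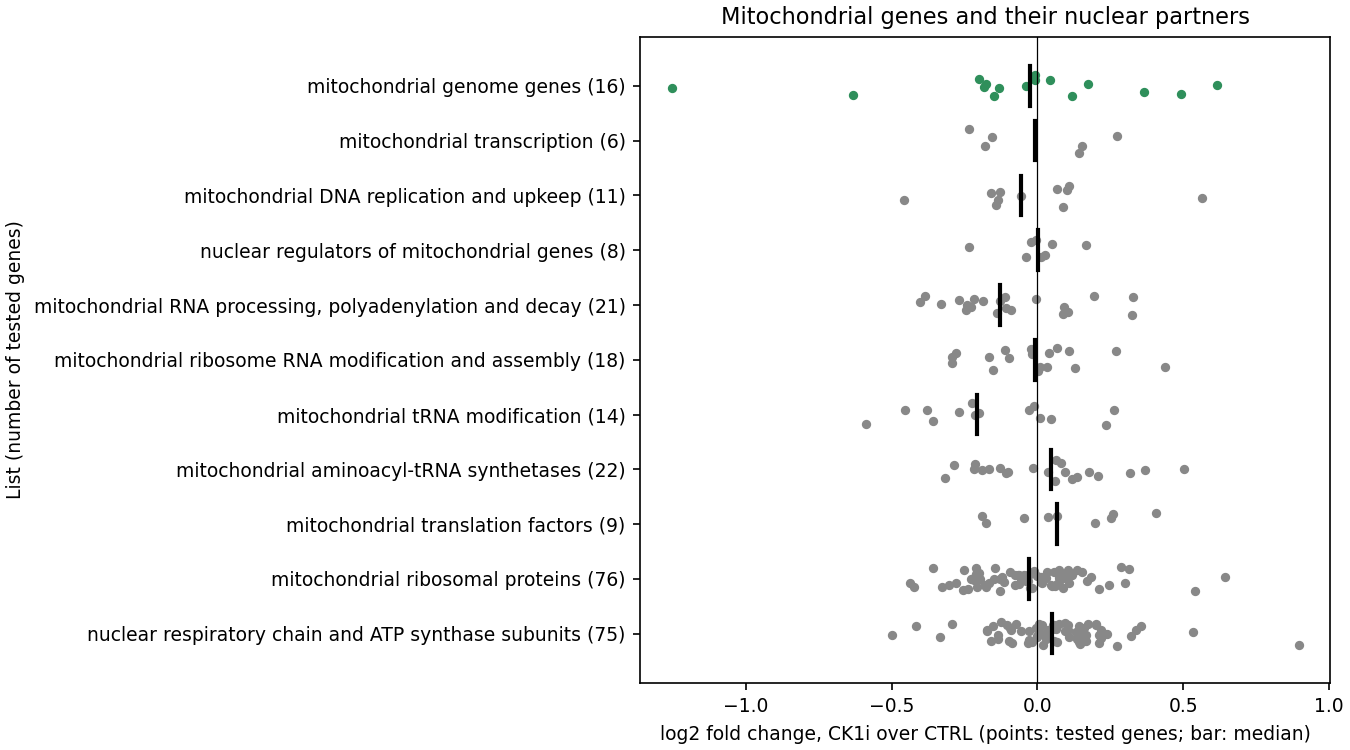
Log2 fold change of CK1i over CTRL (x axis) for each tested gene (points) with the median (bar), for the mitochondrial genome genes and the 10 lists of nuclear genes (y axis, number tested in brackets). Medians lie between -0.21 for tRNA modification and 0.068 for translation factors, and the mitochondrial genes mt-Tq and mt-Tm lie at -1.26 and -0.63.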

How the data were processed

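The authors deposited whole-number counts per gene for 6 libraries, made with a QuantSeq forward 3' kit with molecular identifiers, per the labels' protocols. The submitters' processing notes name UMI-tools 1.1.1, Trimmomatic 0.36, STAR 2.7.3a, Picard 2.18.27 and featureCounts 1.6.3 and the build GRCm38.p6, with no role or order. Collapsing of identifiers, the strand setting and the treatment of reads with several matches are not given in the sources used here, so the Wilson intervals of shares and the floors cover counting error only; intervals of log2 fold changes cover the spread between libraries.

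Members were taken by identifier and annotated with GENCODE M21 (54165 of 54232 identifiers matched). The members and gene lists were chosen with earlier results of these data known. Counts were fitted over the whole table in R 4.3.3 with edgeR 4.0.16: filterByExpr (minimum count 10, minimum total 15), TMM, robust quasi-likelihood F test, Benjamini-Hochberg over all tested genes, threshold 0.05, two-sided. SE is the log2 fold change divided by the root of F. On simulated counts (9952 genes) the procedure recovered 76.8% of genes changed by 1 on the log2 scale and 100% of those changed by 2. There were 6 false calls. The simulation gave every gene the same biological coefficient of variation, 0.16. The 16 tested members had SEs of 0.18 to 0.53, against a median of 0.19 over all tested genes. Such differences in spread were not simulated, so the recovery does not carry over to each member. DESeq2 1.42.0, limma-voom 3.58.1, other filters and scalings, and leaving out each library were alternatives. Values per library are given for members with at least 100 counts in all, and up to 3 members of a nuclear list with the smallest p are named; the stretch of genes between mt-Co1 and mt-Nd4 was singled out after its values were seen. Windows of 75 bases were matched to 141730 transcripts; no genome sequence was used here. Groups of 3 were not screened for outlying samples.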

Additional observations from a re-analysis of the deposited data

How the results depend on the processing

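The count of mitochondrial genome genes past the threshold was 0 in edgeR and under every alternative except 1: without CTRL replicate 1 it was 1 (mt-Tq), so the range over libraries left out was 0 to 1. The count over all genes was 0 in edgeR, 8 in DESeq2, 3 with no filter, and 0 to 1 with a library left out. The count of nuclear list members was 0 throughout. The difference in mitochondrial share, -0.46 percentage points, moved by less than the spread between replicates under each alternative, although its sign changed with some libraries left out (range -1.19 to 0.66). With windows of 50 bases, 5 genes again had over 90% of windows shared. Of 93 gene values under other tools, filters and scalings, 3 changed sign: mt-Rnr1 (0.0087) and mt-Rnr2 (0.0080) with library totals in place of TMM, and mt-Tp (-0.047) in limma-voom. With a library left out 16 of 96 did, in ranges of -0.27 to 0.18 for mt-Rnr1, -0.14 to 0.15 for mt-Rnr2, -0.46 to 0.048 for mt-Tl1, -0.30 to 0.024 for mt-Nd1, -0.19 to 0.16 for mt-Co1, -0.16 to 0.16 for mt-Nd2 and -0.30 to 0.50 for mt-Tp. The cause of these changes was not tested. The other 9 genes kept their sign, some with values near 0. No paired analysis was possible because the labels give no replicate numbers that the groups share. Of the 22 tRNA genes 15 had too few counts to be tested.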
